A study of Mus musculus with 8 samples.

Results

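The C-type lectin receptors of myeloid cells were examined in the hypothalamus of Nestin-Pex5-/- mice. The receptors were chosen from a list of 10 genes, namely *Clec7a*, *Clec4a1*, *Clec4a2*, *Clec4a3*, *Clec4d*, *Clec4e*, *Clec4n*, *Clec5a*, *Clec12a* and *Clec2d*. The list was drawn up with the differences between the genotypes known. The differences of these genes, with the intervals and threshold calls printed for them, are therefore given as a description and not as evidence. A probe set of the Affymetrix mouse genome array was assigned to a receptor when it was annotated to that gene symbol alone, and the brightest one over the 8 arrays stood for the gene. Of the 10 receptors, 8 were measured in this way, by 11 of the 34958 single-gene probe sets of the array, and they made up 8 of 18194 genes. *Clec4a1* and *Clec12a* were not analysed here because no probe set was annotated to either symbol alone.

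The animals were 4 Nestin-Pex5-/- mice of 10 weeks of age (replicates 7 to 10), and 4 wild type mice of the same age (replicates 1 to 4) were set against them. In Nestin-Pex5-/- mice, Cre recombinase under the Nestin promoter deletes a loxP-flanked part of *Pex5*, which encodes the import receptor for peroxisomal matrix proteins, in cells that descend from neural progenitors. Microglia arise outside that lineage and are not a target of this deletion. No treatment is named for either genotype. Both were on the outbred Swiss Webster background, 1 array was hybridized for each hypothalamus, and it is not given in the sources used here whether the wild type mice carried the loxP sites or Cre.

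C-type lectin receptors of myeloid cells bind sugars, lipids or proteins of microbes and of damaged cells through a lectin-like domain. Most activating members hand their signal to the tyrosine kinase SYK, either through a motif in their own tail, as Dectin-1 does, or through the adaptor chains FcRγ (*Fcer1g*) and DAP12 (*Tyrobp*). From there the signal runs through CARD9, BCL10 and MALT1 to NF-kB and on to cytokine genes. Inhibitory members carry a motif that recruits phosphatases such as SHP-1 (*Ptpn6*). In the brain these genes are expressed mainly by microglia and by macrophages and other myeloid cells of the borders and the blood.

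The receptors did not move as 1 group. The main probe sets of *Clec7a*, *Clec4a3*, *Clec5a*, *Clec4a2* and *Clec2d* were higher in all 4 Nestin-Pex5-/- arrays than in any wild type array, whereas those of *Clec4d*, *Clec4e* and *Clec4n* overlapped between the genotypes. Values are log2 intensities after RMA (robust multi-array average), on which a difference of 1 is a doubling, and a gene was called when the adjusted p of limma's moderated test was under 0.05. By that rule 5 of the 8 measured receptors were called higher and 0 lower, beside 3.98% of all 18194 genes called higher, 0.791% called lower and 4.77% called in either direction. Non-overlapping arrays with higher values in Nestin-Pex5-/- mice were seen in 5 of 8 receptors and in 6.63% of all genes, with lower values in 0 of 8 and in 4.51%, and in either direction in 11.1% of all genes. The receptors were picked on this same contrast, so nothing is read from these counts. The median log2 fold change of the 8 receptors was 0.66, against -0.03 for all genes. Because whole hypothalamus was assayed, more cells of a type and more RNA per cell cannot be told apart in any of these values.

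**Figure D1:**
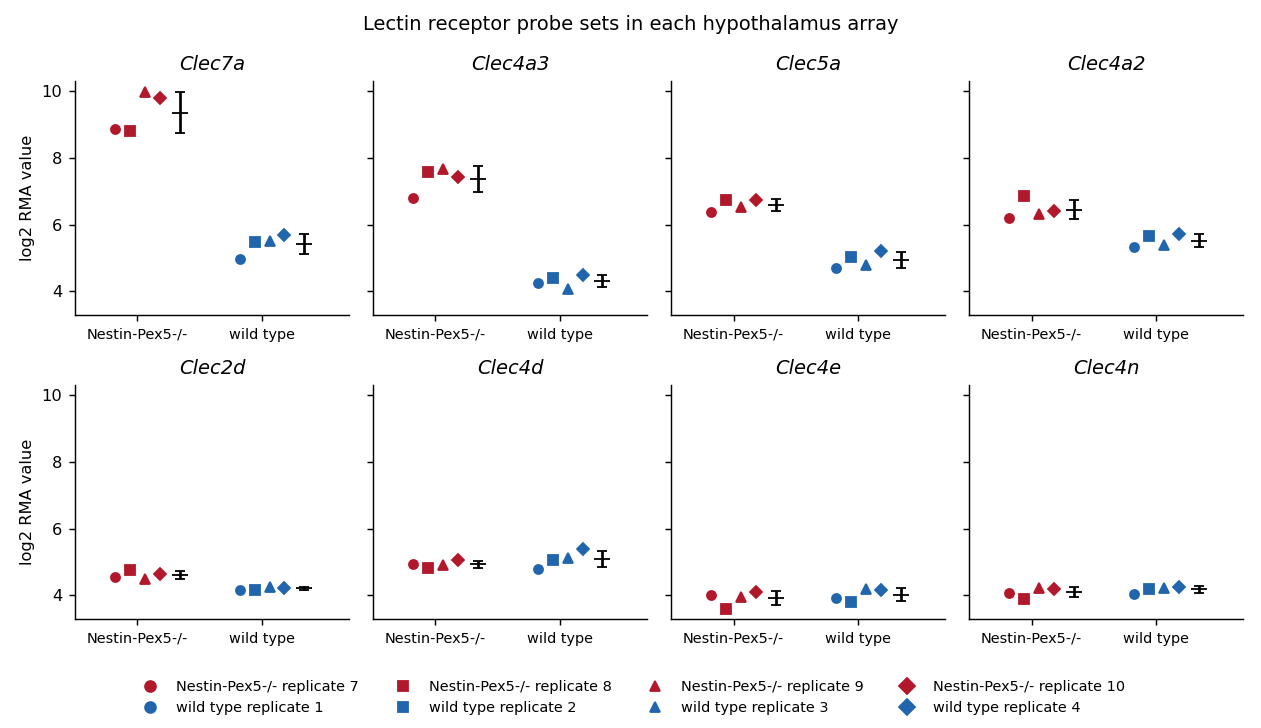
Log2 RMA value of the main probe set of each measured receptor in every array, with Nestin-Pex5-/- arrays in red on the left and wild type arrays in blue on the right of each panel. The horizontal mark and bar give the mean and SD of 4 arrays. *Clec7a*, *Clec4a3*, *Clec5a*, *Clec4a2* and *Clec2d* are separate between the genotypes. *Clec4d*, *Clec4e* and *Clec4n*, which are dim as *Clec2d* is, are not.

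*Clec7a* encodes Dectin-1, the receptor for fungal β-glucan, and is located at chr6:129461591-129472785 (GRCm38). Its log2 values were 8.86, 8.79, 9.98 and 9.79 in the Nestin-Pex5-/- replicates 7 to 10, against 4.97, 5.48, 5.52 and 5.69 in the wild type replicates 1 to 4. The lowest Nestin-Pex5-/- array lay 3.11 log2 units above the highest wild type array. The mean was 9.36 ± 0.62 in Nestin-Pex5-/- mice and 5.41 ± 0.31 in wild type mice (SD, n = 4 each), which is a log2 fold change of 3.94 (SE 0.28) or 15.4-fold, with a 95% interval of 9.96 to 23.7. The log2 fold change of *Clec7a* ranked 3 among all 18194 genes. Replicates 9 and 10 were both about 1 log2 unit above replicates 7 and 8, and the range among the 4 Nestin-Pex5-/- arrays was 1.19.

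*Clec4a3* encodes DCIR3, a close relative of the inhibitory dendritic cell immunoreceptor, and lies at chr6:122952515-122969878. It had log2 values of 6.81, 7.57, 7.66 and 7.42 in Nestin-Pex5-/- mice, against 4.26, 4.40, 4.07 and 4.48 in wild type mice. The groups stood far apart, and replicate 7 was the lowest of the Nestin-Pex5-/- arrays. The mean of 7.36 ± 0.38 in Nestin-Pex5-/- mice and of 4.30 ± 0.18 in wild type mice (SD, n = 4 each) corresponds to 8.34-fold (95% interval 6.36 to 10.9, log2 fold change 3.06, SE 0.17), rank 9 of all genes. Only 10 genes on the array reached 8-fold, and *Clec7a* and *Clec4a3* were both among them.

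*Clec5a* encodes MDL-1, a receptor that signals through DAP12, and is the member that lies far from the others, at chr6:40574898-40585805. Its log2 values were 6.36, 6.72, 6.54 and 6.74 in Nestin-Pex5-/- mice, against 4.71, 5.02, 4.80 and 5.22 in wild type mice. The arrays of each genotype were close together. The mean was 6.59 ± 0.18 in Nestin-Pex5-/- mice and 4.94 ± 0.23 in wild type mice (SD, n = 4 each), or 3.15-fold (95% interval 2.59 to 3.82, log2 fold change 1.65, SE 0.12).

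*Clec4a2* encodes DCIR, an inhibitory receptor with a phosphatase-recruiting motif, and lies at chr6:123122690-123143999. Its main probe set, 1422013_at, gave log2 values of 6.19, 6.85, 6.32 and 6.41 in Nestin-Pex5-/- mice, against 5.34, 5.66, 5.38 and 5.71 in wild type mice. The groups did not overlap, and replicate 8 was the highest. The mean of 6.44 ± 0.28 in Nestin-Pex5-/- mice and of 5.52 ± 0.19 in wild type mice (SD, n = 4 each) corresponds to 1.89-fold (95% interval 1.51 to 2.37). The other probe set of the gene, 1425406_at, did not show this difference, with log2 values of 4.93, 4.97, 5.11 and 5.05 in Nestin-Pex5-/- mice, against 5.02, 4.99, 5.21 and 5.17 in wild type mice. When the probe sets of a gene were averaged, the log2 fold change of *Clec4a2* was 0.42 in place of 0.92, and under a test of each gene by itself, without moderation over genes, it was no longer called.

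*Clec2d* encodes a lectin-like ligand that is bound by NKR-P1 receptors of natural killer cells, and lies at chr6:129180615-129186535. It had log2 values of 4.56, 4.76, 4.48 and 4.65 in Nestin-Pex5-/- mice, against 4.17, 4.16, 4.26 and 4.23 in wild type mice. The groups were separated by a gap of 0.22 log2 units in a probe set that was dimmer than most, at percentile 10.6 of the mean levels of all genes. The mean was 4.61 ± 0.12 in Nestin-Pex5-/- mice and 4.20 ± 0.048 in wild type mice (SD, n = 4 each), or 1.33-fold (95% interval 1.19 to 1.48). Scaled to *Actb*, the log2 fold change of *Clec2d* was 0.28 and the gene was no longer called.

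The remaining 3 measured receptors signal with FcRγ. *Clec4e* (chr6:123281789-123289871) encodes Mincle, which binds mycobacterial cord factor and the nuclear protein SAP130 of dead cells. *Clec4d* (chr6:123262107-123275268) encodes MCL, which forms a complex with Mincle, and *Clec4n* (chr6:123229843-123247024) encodes Dectin-2, the receptor for fungal mannan. 

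*Clec4e* gave log2 values of 4.01, 3.60, 3.95 and 4.10 in Nestin-Pex5-/- mice, against 3.93, 3.80, 4.20 and 4.17 in wild type mice, which overlapped and gave 0.927-fold with a 95% interval of 0.763 to 1.13. *Clec4d* gave 4.93, 4.83, 4.90 and 5.05 in Nestin-Pex5-/- mice, against 4.78, 5.04, 5.12 and 5.38 in wild type mice, or 0.898-fold (95% interval 0.751 to 1.07). *Clec4n* gave 4.06, 3.90, 4.20 and 4.20 in Nestin-Pex5-/- mice, against 4.03, 4.19, 4.23 and 4.25 in wild type mice, or 0.944-fold (95% interval 0.828 to 1.08). All 3 probe sets were dim, at percentiles 5.56 to 17.6 of the mean levels of all genes, and a dim probe set can understate a change. These percentiles are of the mean over all 8 arrays. In wild type mice alone, the means of *Clec4a3* (4.30) and *Clec2d* (4.20) were also low. Those of *Clec4n*, *Clec4e* and *Clec4d* were 4.17, 4.02 and 5.08. A further probe set of *Clec4e* (1420331_at, 1.05-fold) and one of *Clec4n* (1425951_a_at, 1.03-fold) also overlapped between the genotypes.

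**Figure D2:**
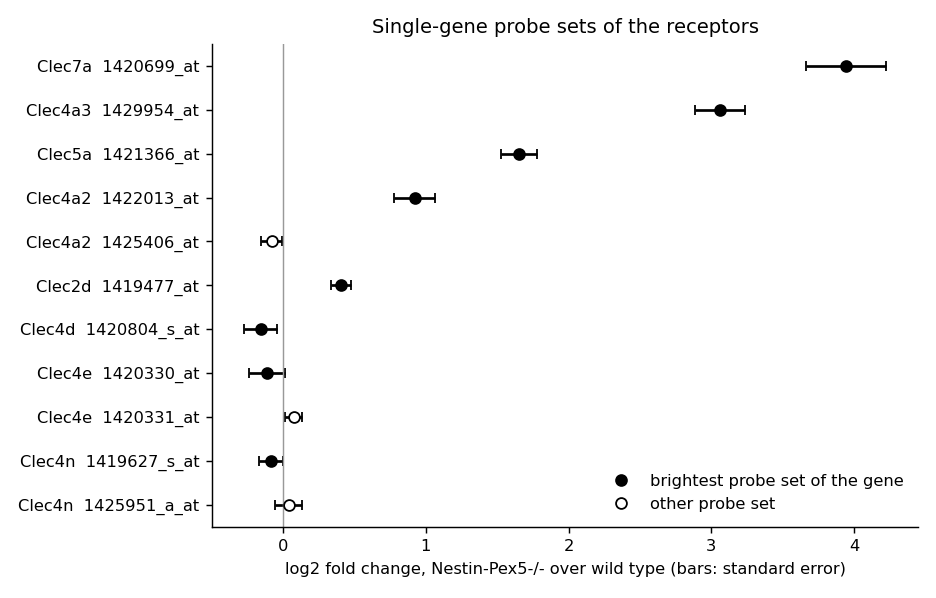
Log2 fold change, Nestin-Pex5-/- over wild type, of each of the 11 single-gene probe sets of the receptors, with the standard error as a bar. Filled points are the brightest probe set of a gene and open points the others. *Clec4a2* is the gene whose 2 probe sets stand apart, at 0.92 and -0.08.

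A probe set that the platform annotation shares between *Clec4b1* and *Clec4a2* (1425407_s_at) was kept out of the 11. Its log2 values were 6.61, 6.86, 6.64 and 6.64 in Nestin-Pex5-/- mice, against 5.48, 5.76, 5.71 and 6.05 in wild type mice. The single-gene probe set of *Clec4b1* did not differ in this way, at 1.02-fold with overlapping arrays. The genes of the *Clec4* cluster are related in sequence, and whether their probes also bind transcripts of a neighbouring relative was not tested.

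Within the Nestin-Pex5-/- group the receptors did not follow 1 order. Expressed as the difference from the wild type mean, *Clec7a* stood at 3.44, 3.38, 4.57 and 4.38 log2 units in replicates 7 to 10. *Clec4a3* stood at 2.51, 3.27, 3.36 and 3.11, and *Clec5a* at 1.43, 1.79, 1.60 and 1.80. *Clec7a* was thus higher in replicates 9 and 10, whereas *Clec4a3* and *Clec5a* were lowest in replicate 7. *Clec4a2*, at 0.67, 1.33, 0.80 and 0.89, and *Clec2d*, at 0.35, 0.55, 0.28 and 0.45, were both highest in replicate 8. The mean of 14 microglia markers stood at 1.13, 1.45, 1.31 and 1.46 in the same arrays.

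**Figure D3:**
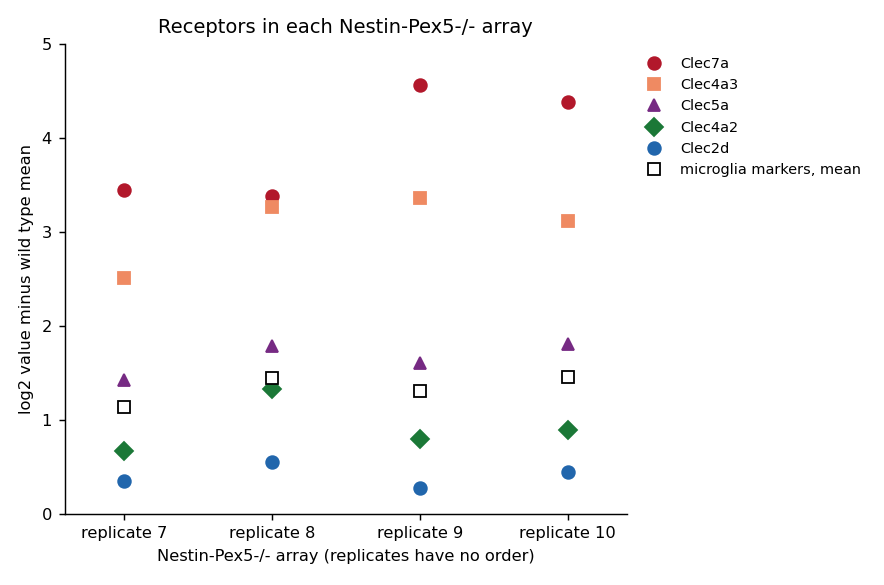
Log2 value of 5 receptors in each Nestin-Pex5-/- array minus the wild type mean of the same probe set, with the mean over 14 microglia markers as open squares. *Clec7a* is higher in replicates 9 and 10 (4.57 and 4.38) than in 7 and 8 (3.44 and 3.38), and *Clec4a2* and *Clec2d* are highest in replicate 8.

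The markers of myeloid cell types were read beside these values. Of 14 measured microglia markers, 13 were called higher in Nestin-Pex5-/- mice, beside 3.98% of all genes. The median log2 fold change of the 14 markers was 1.37. The mean level of these markers ranged over 9.07 to 9.39 in Nestin-Pex5-/- arrays, against 7.85 to 8.04 in wild type arrays. Among them, *Aif1*, which encodes the microglial protein IBA1, was 4.68-fold and *Trem2*, a receptor for lipids, 4.48-fold higher. *P2ry12*, the purinergic receptor of homeostatic microglia, was 1.37-fold higher and not called (limma, adjusted p = 0.0554). All 14 markers, *P2ry12* included, had non-overlapping arrays with higher values in Nestin-Pex5-/- mice, beside 6.63% of all genes. With array weights, and without Nestin-Pex5-/- replicate 7, all 14 were called higher, and 12 in a test of each gene without moderation. *Clec7a* and *Clec4a3* had larger fold changes than any of the 14 markers, *Clec5a* and *Clec4a2* lay within their range, and *Clec2d* lay below it. None of the 6 monocyte markers and none of the 8 neutrophil markers was called by limma, and at an unadjusted p under 0.05 1 monocyte marker was higher, 1 was lower and 2 neutrophil markers were lower. With the probe sets of a gene averaged, and also with array weights, 1 monocyte marker was called higher. The mean level of the monocyte list was 6.39 to 6.73 in Nestin-Pex5-/- arrays, against 6.40 to 6.65 in wild type arrays, and that of the neutrophil list was 4.82 to 4.96 in Nestin-Pex5-/- arrays, against 4.84 to 5.18 in wild type arrays. Of 8 markers of border macrophages only *Ms4a7*, a membrane protein of macrophages, was called (3.10-fold), a call that was lost in a test of each gene without moderation, and of 7 dendritic cell markers only *Itgax*, the integrin CD11c (6.18-fold). The part that microglia number plays in the receptor values was not tested.

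Both main adaptor chains of the receptors were higher in Nestin-Pex5-/- mice. *Tyrobp*, which encodes DAP12, had log2 values of 11.58, 11.81, 11.62 and 11.66 in Nestin-Pex5-/- mice, against 8.85, 8.70, 8.68 and 8.93 in wild type mice, and was 7.35-fold higher (limma, adjusted p = 8.6e-08). *Fcer1g*, which encodes FcRγ, had log2 values of 10.36, 10.69, 10.08 and 10.21 in Nestin-Pex5-/- mice, against 8.16, 7.95, 8.21 and 7.92 in wild type mice, and was 4.84-fold higher (limma, adjusted p = 5.2e-06). Both chains were higher in all 4 Nestin-Pex5-/- arrays, including the chain used by *Clec4d*, *Clec4e* and *Clec4n*. *Hcst*, the adaptor DAP10, was 1.13-fold and not called (limma, adjusted p = 0.343).

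Downstream of the receptors the changes were uneven. In the list of adaptors and proximal signalling genes, 8 of 19 measured members were called higher and 0 lower, beside 3.98% higher over all genes, with a median log2 fold change of 0.47. Besides the adaptor chains, these were the scaffold proteins *Blnk* (3.10-fold), *Lat2* (2.86-fold) and *Lcp2* (2.73-fold), the inositol phosphatase *Inpp5d* (2.33-fold), the kinase *Btk* (1.79-fold) and the phospholipase *Plcg2* (1.57-fold). Without single arrays the count called higher in this list ranged over 8 to 11. It was 12 with the probe sets of a gene averaged, 13 with array weights and 3 without genes below the median level. *Syk* itself gave 1.20-fold with non-overlapping arrays and was not called (6.41, 6.52, 6.49 and 6.50 in Nestin-Pex5-/- mice, against 6.05, 6.13, 6.35 and 6.32 in wild type mice, limma, adjusted p = 0.0975). *Ptpn6*, the phosphatase of the inhibitory receptors, gave 1.39-fold (limma, adjusted p = 0.0592). *Syk*, *Ptpn6*, *Hcst*, *Btk* and *Plcg2* were named after their values were seen, for their place in the pathway.

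In the CARD9, NF-kB and NFAT branch, 2 of 21 measured genes (9.52%) were called higher and 0 lower, beside 3.98% higher over all genes. The median log2 fold change of the branch was 0.07. The called genes were the transcription factors *Nfatc1* (1.50-fold) and *Relb* (1.44-fold). The count varied between 1 and 4 when single arrays were left out, at 4 without wild type replicate 4 and at 1 without Nestin-Pex5-/- replicate 8, 9 or 10 or wild type replicate 2 or 3. *Bcl10* (1.05-fold, limma, adjusted p = 0.623) and *Malt1* (1.14-fold, limma, adjusted p = 0.573), the partners of CARD9, were not called, and *Card9* was not analysed here for want of a single-gene probe set.

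A list of 28 genes held outputs of this signalling together with proteins that act after it, namely *Nlrp3*, *Pycard*, *Casp1* and *Casp8*. Of the 28 genes, 11 were called higher and 0 lower, beside 3.98% higher over all genes. *Pycard*, *Casp1* and *Casp8* were among the called genes. The median log2 fold change of the 28 genes was 0.09. *Ccl3*, a chemokine for myeloid cells, had a mean log2 value of 7.47 ± 0.37 in Nestin-Pex5-/- mice and 4.44 ± 0.024 in wild type mice (SD, n = 4 each), or 8.13-fold with non-overlapping arrays. *Il12b*, the shared subunit of interleukins 12 and 23, was 5.25-fold higher, the inflammasome adaptor *Pycard* 3.89-fold, the NF-kB cofactor *Nfkbiz* 2.96-fold, *Il1b*, which encodes interleukin 1β, 2.60-fold and *Casp8*, a protease that cleaves its precursor downstream of Dectin-1, 1.99-fold. The adjusted limma p of these 6 genes was 0.00167 at most. *Tnf* (1.05-fold), *Il10* (1.03-fold) and the inflammasome sensor *Nlrp3* (1.03-fold), which were named after their values were seen, were not called. Many of these genes are also driven by other receptors, and their link to the lectin receptors was not tested.

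Among 11 measured genes for reported ligands and partners of the receptors, 6 were called higher and 0 lower, beside 3.98% higher over all genes. The median log2 fold change of the 11 genes was 0.43. *Tlr2*, a receptor for lipoproteins that cooperates with Dectin-1, was 4.70-fold higher (8.07 ± 0.17 in Nestin-Pex5-/- mice and 5.84 ± 0.066 in wild type mice, SD, n = 4 each). *Cd37*, a tetraspanin that associates with Dectin-1, was 2.68-fold, *Lgals9*, a galectin, 2.66-fold, *Vim*, an intermediate filament protein, 2.45-fold and *Anxa5*, an annexin, 1.34-fold higher. *Klrb1a*, a receptor of the NKR-P1 family to which the binding partners of *Clec2d* belong, was 1.77-fold higher at a low level (4.58 ± 0.19 in Nestin-Pex5-/- mice and 3.76 ± 0.14 in wild type mice, SD, n = 4 each). *Klrb1b* (0.972-fold) and *Sap130* (0.967-fold), the ligand of Mincle, were not called and were named after their values were seen.

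**Figure D4:**
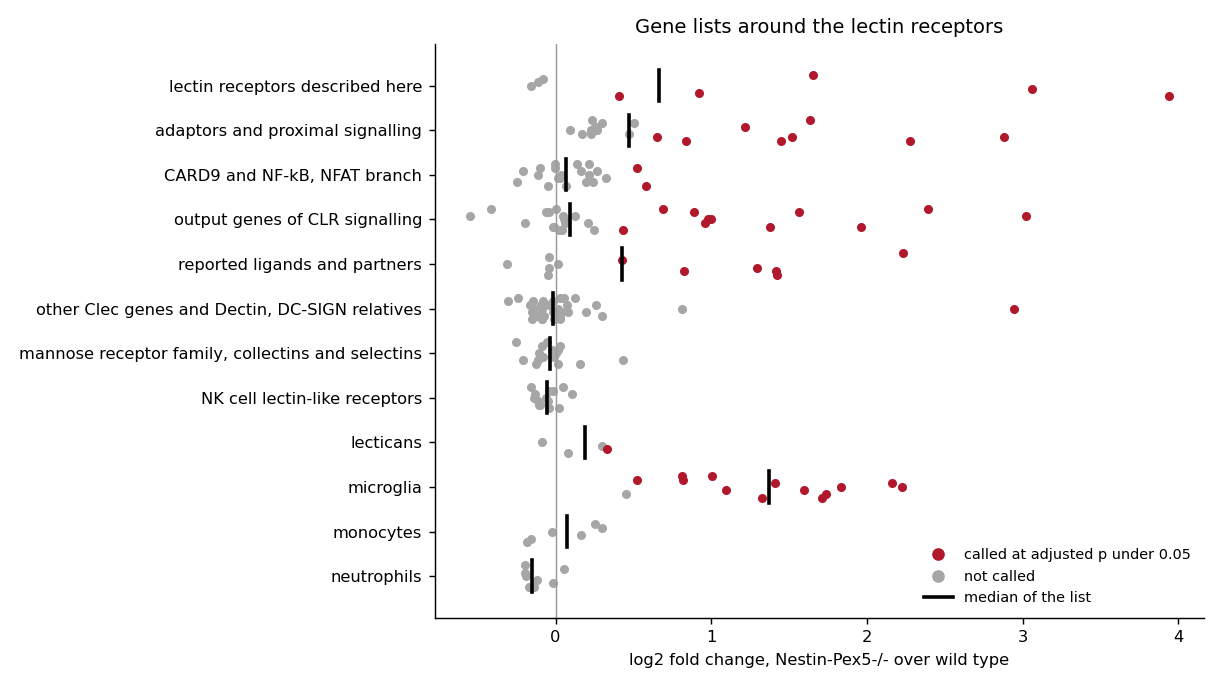
Log2 fold change, Nestin-Pex5-/- over wild type, of every measured gene in the receptor list and in the lists read beside it, with 1 point per gene and the median of each list as a vertical bar. Red points passed an adjusted limma p under 0.05. The adaptors, outputs, ligands and microglia markers hold many red points, whereas the other lectin lists and the monocyte and neutrophil lists hold 1 at most.

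Other genes with a C-type lectin domain were compared with the receptors. Of 67 measured genes of 82 listed, 2 were called higher and 0 lower, which is 2.99% beside 3.98% of all genes, and 7 were higher at an unadjusted p under 0.05. The called genes were *Cd72*, an inhibitory receptor of B cells and some myeloid cells, and *Ncan*, a proteoglycan of the neural matrix (1.26-fold). *Ncan* was no longer called when scaled to *Actb* or at an adjusted p under 0.01. *Cd72* had log2 values of 7.98, 8.60, 8.17 and 8.04 in Nestin-Pex5-/- mice, against 5.28, 4.94, 5.17 and 5.61 in wild type mice, or 7.71-fold (limma, adjusted p = 4.8e-06), which places it beside *Clec4a3*. None of 16 measured genes of the mannose receptor family, collectins and selectins and none of 14 lectin-like receptors of natural killer cells was called by limma, and 1 and 0 of them were higher at an unadjusted p under 0.05.

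All 10 receptor genes lie on chromosome 6, which also carries *Pex5* (chr6:124396816-124415944). *Clec4a1*, *Clec4a3*, *Clec4a2*, *Clec4n*, *Clec4d* and *Clec4e* occupy 0.368 Mb that end 1.11 Mb from *Pex5*, and *Clec2d*, *Clec12a* and *Clec7a* occupy 0.292 Mb that start 4.76 Mb from it on the other side. *Clec5a* lies 83.8 Mb away. Within the *Clec4* cluster the receptors differed, with *Clec4a3* and *Clec4a2* higher and *Clec4n*, *Clec4d* and *Clec4e* overlapping between the genotypes. The 1 other measured gene inside that cluster, *Clec4b1*, was not called, nor was any of 6 measured genes between *Clec2d* and *Clec7a*.

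Because a gene-targeted locus keeps flanking sequence of the strain in which it was made, the genes around *Pex5* were counted. Leaving out the receptors, 12 of 130 measured genes within 5 Mb of *Pex5* were called higher and 0 lower (9.23% called). Over all 988 measured genes of chromosome 6 except the receptors and *Pex5*, with these 130 included, 52 were higher and 7 lower (5.97% called). The 12 called neighbours with the largest changes were *Lag3*, an immune checkpoint receptor (6.30-fold), *C3ar1*, the receptor for complement C3a (5.61-fold), *Usp18*, an interferon-induced protease (3.71-fold), *A2m*, a protease inhibitor (3.42-fold), *Cd9*, a tetraspanin (2.79-fold), and *Apobec1*, an RNA editing enzyme (2.76-fold). Whether sequence differences around the targeted locus touch the probes or the expression of the receptors was not tested. *Pex5* itself gave 8.67 ± 0.071 in Nestin-Pex5-/- mice and 8.66 ± 0.038 in wild type mice (SD, n = 4 each) with its main probe set, and 8.11 ± 0.11 in Nestin-Pex5-/- mice and 8.18 ± 0.078 in wild type mice with the other. The place of these probes relative to the deleted part was not known here, so that *Pex5* checks no label.

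**Figure D5:**
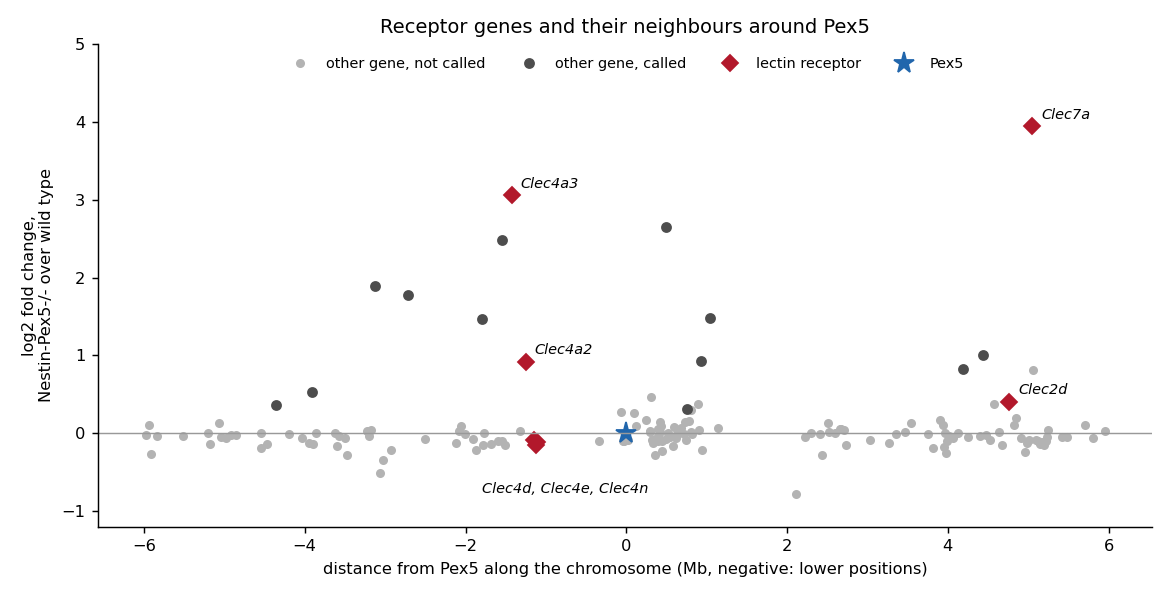
Log2 fold change, Nestin-Pex5-/- over wild type, of measured genes against their distance from *Pex5* along chromosome 6. *Clec4a3* (3.06) and *Clec4a2* (0.92) lie next to *Clec4d*, *Clec4e* and *Clec4n* (between -0.16 and -0.08) below *Pex5*, and *Clec7a* (3.94) and *Clec2d* (0.41) lie above it. Dark points are other genes called at an adjusted limma p under 0.05, and *Clec5a* is outside the range shown.

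The sequences just upstream of the receptor genes were read from RefSeq (GRCm38.p6), with 250 bases before each annotated start. They are shown for 3 receptors that were higher in Nestin-Pex5-/- mice and for *Clec4e*, which was not, so that presence of a myeloid motif can be compared. Capitals mark GAGGAA, the core of many binding sites of the myeloid factor PU.1, or its reverse complement TTCCTC. The stretches are chr6:129472786-129473035 on the minus strand for *Clec7a*, chr6:122952265-122952514 on the plus strand for *Clec4a3*, chr6:40585806-40586055 on the minus strand for *Clec5a* and chr6:123289872-123290121 on the minus strand for *Clec4e*, each written 5′ to 3′.
Clec7a: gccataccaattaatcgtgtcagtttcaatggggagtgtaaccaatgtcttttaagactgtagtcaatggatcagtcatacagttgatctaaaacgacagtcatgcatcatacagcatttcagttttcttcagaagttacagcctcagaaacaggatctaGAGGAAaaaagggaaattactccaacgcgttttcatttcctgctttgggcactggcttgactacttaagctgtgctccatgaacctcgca
Clec4a3: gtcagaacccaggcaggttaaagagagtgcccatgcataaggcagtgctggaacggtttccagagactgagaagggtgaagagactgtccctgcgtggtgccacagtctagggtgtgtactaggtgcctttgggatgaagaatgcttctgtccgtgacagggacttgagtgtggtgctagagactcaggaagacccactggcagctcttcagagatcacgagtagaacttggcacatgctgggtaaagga
Clec5a: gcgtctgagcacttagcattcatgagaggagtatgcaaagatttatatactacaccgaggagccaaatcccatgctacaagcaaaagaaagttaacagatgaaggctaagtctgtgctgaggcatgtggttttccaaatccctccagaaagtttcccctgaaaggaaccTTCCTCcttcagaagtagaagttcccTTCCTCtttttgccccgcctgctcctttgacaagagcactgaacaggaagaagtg
Clec4e: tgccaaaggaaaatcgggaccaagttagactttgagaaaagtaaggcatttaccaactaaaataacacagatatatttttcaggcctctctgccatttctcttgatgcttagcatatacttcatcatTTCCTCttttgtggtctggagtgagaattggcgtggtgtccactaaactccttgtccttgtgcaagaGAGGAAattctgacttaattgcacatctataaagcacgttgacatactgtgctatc

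Promoter sequences were found for 9 of the 10 receptor genes, 11 sequences in all, and *Clec4n* had none in the table. GAGGAA, searched on both strands, was present for 7 of the 9 genes, against 25.9% of 27025 mouse genes with a sequence of the same length. It was present in *Clec4d* and *Clec4e*, whose levels overlapped between the genotypes, and absent in *Clec4a2* and *Clec2d*, which were higher, so its presence did not divide the receptors by their difference. In *Clec4a3* it was found at a start site other than the one printed. The longer form GAGGAAGT, which contains the shorter motif, was present in 0 of 9 genes and in 2.79% of all genes. The AP-1 motif TGANTCA was found in *Clec12a* (7.82% of all genes), the C/EBP motif TTGCNNAA in *Clec12a* and *Clec4e* (10.8%), an interferon response motif in *Clec2d* (3.46%), an NF-kB motif in 0 of 9 genes (1.65%), and TATAAA in *Clec4a2*, *Clec4e* and *Clec5a* (14.3%), each searched on both strands. These are matches of letters and not binding sites.

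Genes with the most similar profile were sought for each receptor over all 8 arrays, as the smallest root mean square difference of log2 values after subtraction of each gene's own wild type mean. The size of the genotype difference enters this measure, so a near gene need not vary with the receptor among the Nestin-Pex5-/- arrays. The nearest to *Clec7a* were the chemokine *Ccl6* (0.476 log2 units), the chemokine *Cxcl13* (0.503), the cystatin *Cst7* (0.565), the surface glycoprotein *Cd52* (0.578) and *Ptprc*, the leukocyte antigen CD45 (0.609). Of these, *Cxcl13* and *Cst7* were lowest in replicate 9, where *Clec7a* was highest. *Cd52* was lowest in replicate 10, and *Ccl6* and *Ptprc* in replicate 7. The nearest to *Clec4a3* were *Siglecf*, a sialic acid-binding lectin (0.200), *Adgre1*, the macrophage protein F4/80 (0.211), and *Tyrobp* (0.261). The nearest to *Clec5a* were the fractalkine receptor *Cx3cr1* (0.147), the granulocyte colony-stimulating factor receptor *Csf3r* (0.166) and *Cyba*, a subunit of the phagocyte oxidase (0.171).

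*Clec4a2* was nearest to *Tor3a* (0.117), *Milr1* (0.124) and *Itpripl2* (0.127), and *Clec2d* to *Afp* (0.0535), *Cttnbp2nl* (0.0635) and *Sirpa* (0.0709). For *Clec4d*, *Clec4e* and *Clec4n* the nearest genes differed by 0.0302 to 0.0595 and were genes with little change of their own. A small difference comes easily to flat profiles, so the measure is compared only within a receptor.

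Over the whole series, array medians ranged over 6.70 to 6.84 log2 units, and limma called 868 genes, 724 higher and 144 lower in Nestin-Pex5-/- mice. Leaving out wild type replicate 4 raised the number of called genes to 1411, and the number called lower ranged over 46 to 331 without single arrays. The same 5 receptors were called whichever of the 8 arrays was left out. Because the receptors were picked on this same contrast, nothing is read from their calls. Scaling to *Actb* turned the split to 540 higher and 1086 lower, and scaling to a list of reference genes to 614 higher and 354 lower. Of 11 measured markers of hypothalamic neurons 1 was called, *Nkx2-1*, a transcription factor of the ventral forebrain (0.804-fold), and the mean level of the list was 8.95 to 9.60 in Nestin-Pex5-/- arrays, against 9.07 to 9.56 in wild type arrays.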

How the data were processed

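The deposited values were, per the labels, log2 intensities that the authors had obtained from Affymetrix arrays by RMA, which corrects background, normalizes by quantiles and summarizes the probes of a probe set, and the software version is not given in the sources used here. The table held 45101 probe sets in 8 arrays, all columns of which were assigned to a sample by name, and arrays have no read depth, so that their number limits the precision. Probe sets were named through the platform annotation, with symbols updated by gene identifier for 34754: 34958 had 1 gene, 932 had several and 9211 had none. The brightest probe set stood for each of 18194 genes. Genotypes were compared with lmFit and eBayes of limma 3.58.1 (R 4.3.3), with p-values adjusted by Benjamini-Hochberg over all genes. The p-values rest on the spread of a gene between 4 mice per genotype, moderated by the spread over all genes. Intervals are 95% intervals of the same fit. The calculation was tested on simulated data.

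The receptors and all lists were chosen with earlier results of these data known. Named genes were every receptor, up to 6 called genes per list with the largest changes, the genes nearest in profile, up to 6 called neighbours of *Pex5* and up to 4 microglia markers, and other names were chosen after their values were seen. Alternatives covered the filter on dim genes, the probe set of a gene, scaling, normalization, test settings, the threshold and leaving out each array. Promoter sequences and positions came from RefSeq, of which GRCm38 was the build. Protein and probe sequences were not used here. Figures were drawn with matplotlib 3.10.9.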

Additional observations from a re-analysis of the deposited data

Results flagged for a closer look

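In tests of 100 groups of 4 arrays for an array far from the others, 2 were flagged and none of them was a probe set of the receptors, while chance flags about 1 in 20 groups. *Lcp2*, a scaffold protein downstream of the receptors, was highest in Nestin-Pex5-/- replicate 8 at a log2 value of 7.65, against 7.24 to 7.29 in the other Nestin-Pex5-/- arrays. *Nkx2-1* was highest in Nestin-Pex5-/- replicate 7 at 6.14, against 6.01 to 6.02 in the other Nestin-Pex5-/- arrays.

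The probe set shared between *Clec4b1* and *Clec4a2* lies outside the single-gene probe sets and carried a difference of its own. Its mean was 6.69 ± 0.11 in Nestin-Pex5-/- mice and 5.75 ± 0.23 in wild type mice (SD, n = 4 each), a log2 difference of 0.94, or 1.92-fold.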

How the results depend on the processing

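The number of receptors called (5) and of receptors with non-overlapping arrays (5) was the same without each array in turn, and the median log2 fold change of the receptors (0.66) ranged over 0.57 to 0.72. The receptors were picked on these same arrays, so nothing is read from that sameness. Without 1 array the folds were 13.3 to 17.5 for *Clec7a*, 7.79 to 9.48 for *Clec4a3*, 2.99 to 3.36 for *Clec5a*, 1.73 to 2.01 for *Clec4a2* and 1.28 to 1.37 for *Clec2d*. The receptor median was 0.41 with the probe sets of a gene averaged and 0.92 without _s_at and _x_at probe sets, where *Clec4d* was no longer measured and *Clec4n* turned to 0.041. With array weights, *Clec4e* and *Clec4n* turned to 0.0058 and 0.0040. Genes called numbered 868, and 593 to 1411 without 1 array, 521 without genes below the median level, 1626 scaled to *Actb*, 2050 with array weights, 560 by a test of each gene without moderation and 487 at an adjusted p under 0.01. Called genes in the signalling, output, ligand and other lectin lists numbered 29, and 27 to 35 without 1 array. They came to 8 without genes below the median level, where none of the receptors remained, and to 43 with array weights. Called neighbours of *Pex5* numbered 12, and 10 to 18 without 1 array. They came to 4 without genes below the median level and to 23 with array weights. The median of all genes moved to -0.16 when scaled to *Actb*. No paired analysis was made because the labels name no litter or pair.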

Other observations

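*Olr1*, which encodes the lectin-like receptor for oxidized low-density lipoprotein and lies beside *Clec7a*, was not called (1.76-fold, limma, adjusted p = 0.174) although its arrays did not overlap. Its log2 values were 3.98, 4.03, 5.24 and 5.20 in Nestin-Pex5-/- replicates 7 to 10, against 3.84, 3.76, 3.81 and 3.78 in wild type mice. Replicates 9 and 10 were thus the higher ones, as for *Clec7a*. The macrophage mannose receptor *Mrc1* was also higher in replicates 9 and 10 (6.94 and 6.83) than in 7 and 8 (6.10 and 6.31), with 6.22, 6.37, 6.40 and 6.56 in wild type mice. *Ms4a7* had the opposite order, at 8.26, 7.83, 6.96 and 6.92 in Nestin-Pex5-/- replicates 7 to 10, against 5.84, 5.72, 5.66 and 6.21 in wild type mice. The mean level of the 11 markers of hypothalamic neurons was 9.60, 9.26, 8.95 and 8.95 in Nestin-Pex5-/- replicates 7 to 10, against 9.53, 9.56, 9.07 and 9.52 in wild type mice, and that of the 6 monocyte markers was 6.43, 6.39, 6.73 and 6.69 in the same Nestin-Pex5-/- arrays, against 6.40, 6.43, 6.52 and 6.65 in wild type mice. Replicates 9 and 10 were thus lower than 7 and 8 in the neuron list and higher in the monocyte list. These genes were chosen after their values were seen, and what sets the arrays apart was not tested.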
